A study of Mus musculus with 4 samples.

Results

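The genes described here are 32 that act in DNA replication or at the G1/S transition, the step at which a cell commits to copying its genome. They were taken by name from a deposited table of read counts that holds 58735 gene rows. Each symbol matched 1 row, and all 32 were among the 15294 genes that passed the expression filter and were tested, so none was lost for low counts. Their reads made up 0.723% of the counts in both wild-type libraries, and 0.473% and 0.466% in the libraries labelled knockout.

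A human cell prepares its replication origins in G1. The origin recognition complex (ORC), with CDC6 and CDT1, loads the ring of MCM2 to MCM7 onto DNA, and in S phase CDC45 and the GINS complex turn that ring into an active helicase. DNA polymerases alpha, delta and epsilon then copy the strands with the sliding clamp PCNA and its loader RFC, while ribonucleotide reductase and thymidylate synthase supply precursors and CAF-1 deposits new histones. Most of these genes are targets of the E2F transcription factors, whose activity is released when cyclin-dependent kinases phosphorylate the retinoblastoma protein.

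The study measured RNA in Jurkat cells, a line from a human T cell leukaemia, in 2 libraries with the genotype wild-type and 2 in which MATR3, the gene of the nuclear RNA-binding protein matrin 3, was labelled as knocked out with CRISPR-Cas9. All were grown in the same serum-supplemented medium, no other treatment is given, and the labels do not say whether the knockout was 1 clone or a pool. Nothing in them places the 2 libraries of a group in separate cultures, so the tests measure the spread between these libraries only, which could be technical. Total counts ranged from 15008554 to 17477643 per library.

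The libraries labelled knockout went against their labels in some readouts, so each direction below compares the libraries by their labels, knockout with wild-type. The tested MATR3 row held 19 and 9 reads in wild-type against 42 and 61 reads in the libraries labelled knockout, and a second, overlapping MATR3 row took 1 to 5 reads per library. The tested row passed as higher (log2 fold change 2.05, SE 0.38, adjusted p = 2.85e-06). Reads in the part that both rows share may have been counted for neither, so the rows do not check the knockout itself. CDKN2A, the gene of the cell cycle inhibitors p16 and ARF, is known to be deleted in Jurkat cells. It held 8 and 1 reads in wild-type but 668 and 811 in the libraries labelled knockout. Defining T cell markers were present in every library. Of 13, 12 were lower in the libraries labelled knockout and 0 higher, and their summed level was 3657 and 3402 CPM (counts scaled to library size) in wild-type against 1476 and 1439. Of 12 myeloid markers, 11 could be tested, and 10 were higher and 0 lower, with a summed level of 109 and 112 CPM in wild-type against 5518 and 5398 CPM in the others, most of it from the granulocyte enzyme gene MPO. Summed fibroblast markers stayed between 10.9 and 12.2 CPM in all 4 libraries, erythroid markers between 0.918 and 2.16 CPM and natural killer cell markers between 23.6 and 28.6 CPM. B cell markers summed to 9.51 to 16.4 CPM. These sums hid single changes at low counts. Of 3 B cell markers tested, CD79A was lower (log2 fold change -1.36), and PAX5 and BLNK were higher (8.51 and 3.47). PAX5 had 0 reads in both wild-type libraries against 53 and 32 in the others. Of the natural killer cell markers NCAM1 was lower and NKG7 higher, and of the fibroblast markers PDGFRB was higher. KRT8 and KRT18 brought the epithelial markers from 10.9 and 13.0 CPM to 122 and 123 CPM, while EPCAM and KRT19 had 0 reads throughout. Mitochondrially encoded genes took 4.92% to 5.31% of counts in wild-type against 9.33% to 9.49% in the others. The part that these differences play in the results below was not tested.

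Most replication and G1/S genes were lower in the libraries labelled knockout. By edgeR's quasi-likelihood test, with an adjusted p below 0.05 as the threshold, 26 of the 32 were lower, 4 were higher and 2 did not pass. Over all genes tested, 32.3% were called lower and 33.7% higher, and among the 9284 genes averaging at least 10 CPM the shares were 40.3% and 34.8%. The median log2 fold change was -0.78 over the 32 genes and 0.02 over all genes tested, and 16.6% of all tested genes lay at or below -0.78. A fall of at least 2-fold was seen for 7 of the 32 (10.7% of all genes tested), namely CDC6, MCM4, GINS1, GINS2, PCNA, RRM2 and CHAF1B. At least 1.5-fold falls were called for 20 (20.8% of all genes tested). In bulk RNA, fewer cells in S phase and less RNA per cell cannot be told apart. The groups also differed in CDKN2A and in T cell and myeloid markers, as given above, and the part of that difference was not tested.

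The levels of the wild-type and labelled knockout libraries did not overlap for 30 of the 32 genes, 26 lower and 4 higher, where 40.4% and 41.6% of all genes tested did so in these directions. For the same number, 30, the log2 fold change was larger than the gap between replicates of either group. That gap had a median of 0.12 on the log2 scale between the wild-type libraries and 0.05 between the others. POLA1 and POLD1 were the exceptions. How many of all genes tested exceeded their replicate gaps was not counted, so that second count has no background beside it.

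**Figure D1:**
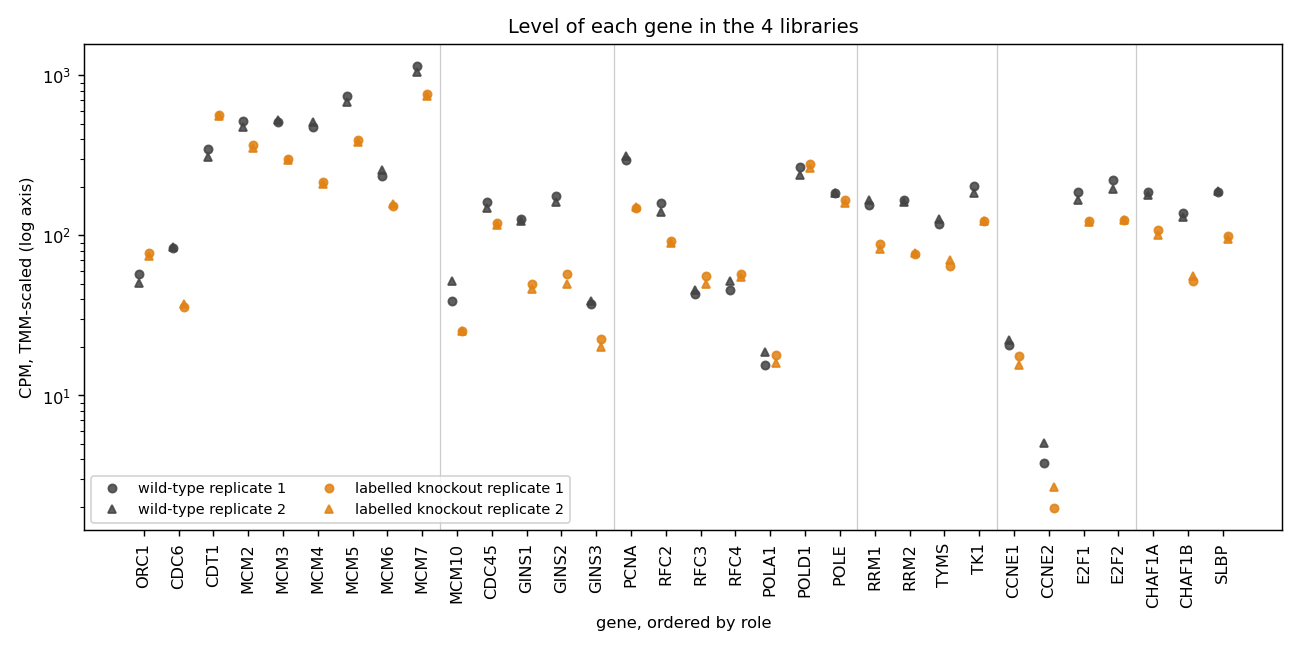
Level of each of the 32 genes in each library, as TMM-scaled CPM on a log axis, with grey symbols for wild-type, orange for the libraries labelled knockout, and circles and triangles for replicates 1 and 2. The orange symbols lie below both grey ones for 26 genes, and above both for ORC1, CDT1, RFC3 and RFC4. The groups overlap for POLA1 and POLD1.

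**Figure D2:**
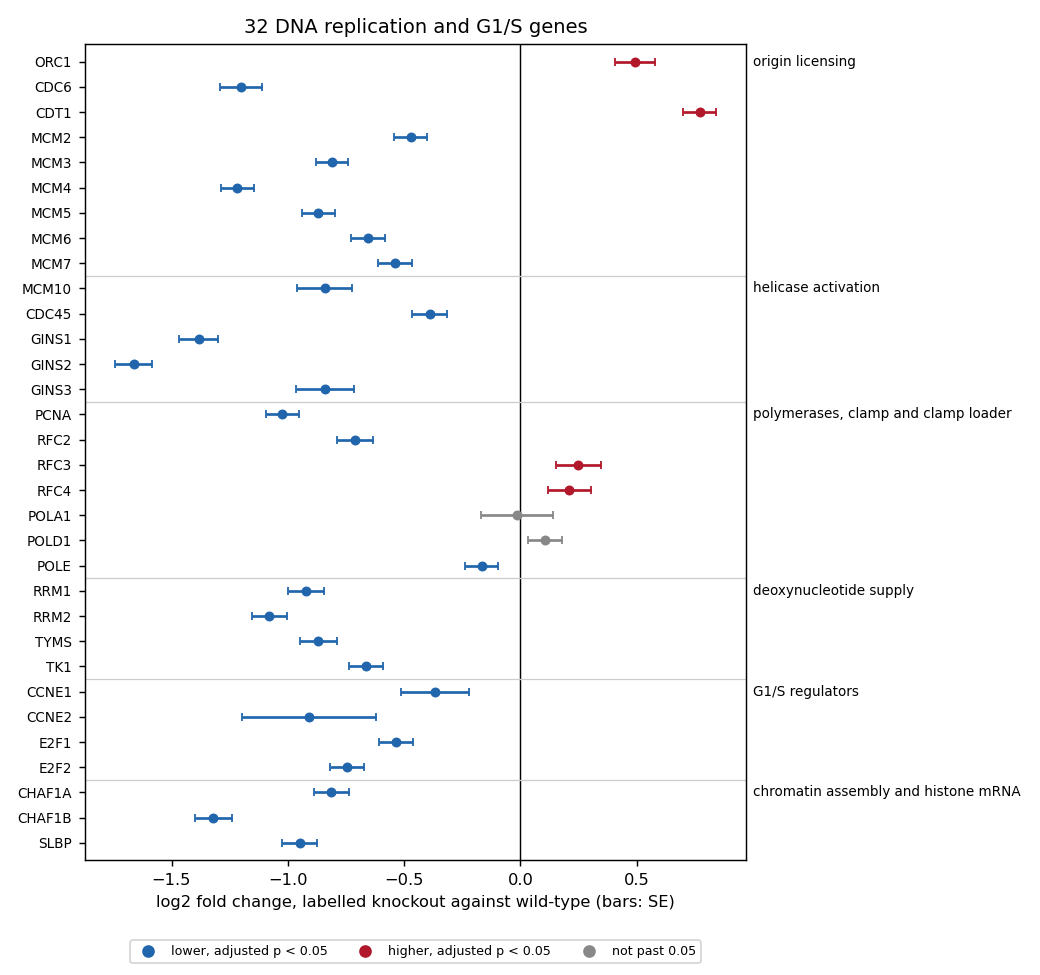
Log2 fold change of each gene, labelled knockout compared with wild-type, grouped by role, with bars for the standard error. GINS2 lies lowest at -1.66 and CDT1 highest at 0.77, and 4 of the 7 genes of the polymerase, clamp and clamp loader group lie near or above 0.

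Among the 9 genes of origin licensing, 7 were lower and 2 higher, and the loading factors moved in opposite directions. Beside this and the role counts below stand the 32.3% of all genes tested called lower and the 33.7% called higher. Among genes averaging at least 10 CPM these shares were 40.3% and 34.8%. CDC6, the ATPase that joins ORC to load the MCM ring (ENSG00000094804, chromosome 17, 40287633 to 40304657, on a build that is not given in the sources used here and that holds for all coordinates below), stood at 82.9 and 85.04 CPM in wild-type against 35.8 and 37.2 CPM in the libraries labelled knockout. It was thus 2.30-fold lower (log2 fold change -1.20, SE 0.09, adjusted p = 1.91e-20). CDT1, its partner in loading (ENSG00000167513, chromosome 16, 88803213 to 88809258), went from 347 and 309 CPM to 566 and 554 CPM. This was a 1.71-fold rise (log2 fold change 0.77, SE 0.07, adjusted p = 4.86e-16), the largest rise among the 32 genes. ORC1, the ORC subunit that is degraded after origins fire, stood at 57.5 and 50.6 CPM in wild-type against 77.5 and 74.8 CPM in the others (log2 fold change 0.49, SE 0.09, adjusted p = 6.81e-07).

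Because CDT1 rose and CDC6 fell, their balance differed between the groups. On a per-length scale, in RPKM, which divides the CPM by the length of the gene model in kilobases, CDT1 stood at 6.96 and 6.06 times CDC6 in wild-type against 26.3 and 24.8 times in the libraries labelled knockout. GMNN, the gene of geminin, which binds and blocks CDT1 after origins fire, fell (log2 fold change -0.42, adjusted p = 0.000723). CDT1 over GMNN was 6.58 and 5.11 in wild-type against 13.6 and 12.8 in the others, per length. For both ratios the groups did not overlap. An exact permutation test of 2 libraries against 2 cannot give a p below 0.333, so the ratios have no test of their own.

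All 6 genes of the MCM ring were lower, by unequal amounts. MCM4 fell most, from 474 and 511 CPM to 215 and 209 CPM (2.33-fold lower, log2 fold change -1.22, SE 0.07, adjusted p = 3.79e-26). MCM5 went from 742 and 681 CPM to 393 and 386 CPM (log2 fold change -0.87), and MCM3 from 515 and 524 CPM to 298 and 294 CPM (log2 fold change -0.81). MCM6 (-0.66), MCM7 (-0.54) and MCM2 (-0.47) had the smaller log2 fold changes of the ring, with adjusted p of 5.64e-13, 5.15e-10 and 1.42e-08. Every wild-type value of each ring gene exceeded both values in the libraries labelled knockout.

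The 6 proteins form a ring with 1 copy of each, but their transcript levels per length were not equal. Such rankings between genes rest on the length of the gene model, from 3650 bases for MCM3 to 7338 for MCM5. That length may differ from that of the transcripts present. MCM7, which carries a microRNA cluster in an intron, was the highest per length in every library, at 35.5% and 33.8% of the summed RPKM of the 6 genes in wild-type against 38.6% and 38.3% in the others. MCM6 was the lowest in wild-type (7.77% and 8.74%), and MCM4 the lowest in the libraries labelled knockout (6.80% and 6.76%, from 9.25% and 10.3%). The highest gene stood at 4.57 and 3.87 times the lowest in wild-type against 5.68 and 5.66 times in the others. The summed RPKM of the ring went from 734 and 709 to 453 and 442.

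All 5 genes of helicase activation were lower. The GINS complex has 4 subunits, and GINS2 and GINS1 had the deepest falls of the 32 genes. GINS2 (ENSG00000131153, chromosome 16, 85676198 to 85690073) had 3084 and 2568 reads in wild-type against 836 and 739 in the libraries labelled knockout, and was 3.17-fold lower (log2 fold change -1.66, SE 0.08, adjusted p = 8.04e-31). GINS1 went from 126 and 124 CPM to 49.5 and 46.3 CPM, 2.61-fold lower (adjusted p = 7.42e-26). GINS3, at 37.4 and 38.9 CPM in wild-type, stood at 22.4 and 20.2 CPM (log2 fold change -0.84), and GINS4, not among the 32, had a log2 fold change of -0.90.

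CDC45 and MCM10 complete the group. CDC45, a part of the active helicase, went from 161 and 149 CPM to 120 and 117 CPM, a log2 fold change of -0.39 (SE 0.07, adjusted p = 3.94e-06). MCM10, a scaffold that acts when the helicase starts to unwind, was at 39.0 and 51.6 CPM in wild-type against 25.2 CPM in both libraries labelled knockout (log2 fold change -0.84, SE 0.12). Its wild-type replicates lay 0.40 apart on the log2 scale, the widest gap of any of the 32 genes other than CCNE2.

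The genes of polymerases, clamp and clamp loader divided. Of 7, 3 were lower, 2 higher and 2 not called. These shares, 42.9% lower and 28.6% higher, were near the 40.3% and 34.8% of genes averaging at least 10 CPM. PCNA, the sliding clamp (ENSG00000132646, chromosome 20, 5114953 to 5126626), fell from 296 and 314 CPM to 149 and 151 CPM, 2.03-fold (adjusted p = 6.91e-22). The catalytic subunit genes of the polymerases moved little. POLD1, of polymerase delta, stood at 268 and 239 CPM in wild-type against 281 and 265 CPM in the others (log2 fold change 0.11, SE 0.07, adjusted p = 0.188), with overlapping groups. Without wild-type replicate 1 it passed as higher (log2 fold change 0.21, adjusted p = 0.000553). POLA1, of polymerase alpha, was at 15.5 and 18.7 CPM against 17.9 and 15.9 CPM, and its log2 fold change of -0.01 (SE 0.15, adjusted p = 0.943) changed sign with the scaling. POLE, of polymerase epsilon, stood at 183 and 185 CPM against 167 and 160 CPM, a log2 fold change of -0.17 (SE 0.07, adjusted p = 0.0350). That call was lost under 3 of the 4 other scalings, among them DESeq2 size factors (adjusted p = 0.0793), and without either library labelled knockout (adjusted p = 0.193 without replicate 1 and 0.408 without replicate 2). The DESeq2 Wald test (0.0801) and the fit with no expression filter (0.114) did not call it either. Per length, POLD1 stood at 0.270 and 0.228 of PCNA in wild-type against 0.564 and 0.522 in the others.

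RFC, the loader that opens PCNA around DNA, has 5 subunits, and these went both ways. RFC2 fell from 159 and 140 CPM to 92.5 and 90.3 CPM (log2 fold change -0.71, SE 0.08, adjusted p = 3.51e-13), and RFC5, not among the 32, had a log2 fold change of -0.79. RFC3 was at 43.2 and 45.7 CPM in wild-type against 55.5 and 50.03 CPM in the others (log2 fold change 0.25, SE 0.10, adjusted p = 0.0194). RFC4 was at 45.6 and 51.6 CPM against 57.2 and 55.2 CPM (log2 fold change 0.21, SE 0.09, adjusted p = 0.0419). Both calls were lost with library totals alone as scaling (adjusted p = 0.0787 and 0.153) and by the DESeq2 Wald test (0.0617 and 0.106), as well as with no expression filter (0.0612 and 0.107). They were lost too without replicate 1 labelled knockout (0.365 and 0.309) or replicate 2 (0.0584 and 0.167), and that of RFC4 also without wild-type replicate 1 (0.145). RFC1, the large subunit, rose further (log2 fold change 0.88, adjusted p = 1.42e-11).

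All 4 genes of deoxynucleotide supply were lower. RRM2, the S phase subunit of ribonucleotide reductase (ENSG00000171848, chromosome 2, 10120698 to 10131419), went from 166 and 162 CPM to 77.0 and 78.0 CPM (2.11-fold lower, log2 fold change -1.08, SE 0.08, adjusted p = 1.07e-21). RRM1, the large subunit of the same enzyme, went from 156 and 167 CPM to 88.6 and 81.9 CPM (1.89-fold lower). The 2 subunits thus fell by similar amounts, and RRM2 stood at 0.834 and 0.760 of RRM1 per length in wild-type against 0.681 and 0.748 in the others. TYMS, the thymidylate synthase gene, went from 119 and 127 CPM to 64.3 and 70.1 CPM (log2 fold change -0.87). TK1, the thymidine kinase of proliferating cells, went from 204 and 185 CPM to 123 CPM in both (log2 fold change -0.66).

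Genes with related or opposing roles in this supply did not all fall. RRM2B, the p53-inducible alternative small subunit, rose from 7.003 and 8.42 CPM to 11.9 and 10.7 CPM (log2 fold change 0.56, adjusted p = 0.00749), a call that was lost without wild-type replicate 1 (0.0529) or replicate 1 labelled knockout (0.115). Per length, RRM2 stood at 24.7 and 20.04 times RRM2B in wild-type against 6.72 and 7.58 times in the others. SAMHD1, which breaks deoxynucleotides down and is abundant in myeloid cells, rose from 1.72 and 2.20 CPM to 10.4 and 10.2 CPM (5.26-fold, adjusted p = 2.12e-14). The myeloid markers given above rose too, and a link between these rises was not tested. NME1, DTYMK and DUT, which take part in making deoxynucleotides, fell with log2 fold changes of -0.95, -0.71 and -0.60.

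The 4 G1/S regulators were lower. E2F1, an activating transcription factor of S phase genes, went from 186 and 166 CPM to 122 and 121 CPM (log2 fold change -0.53, SE 0.07, adjusted p = 1.65e-09). E2F2, a second activator, went from 223 and 194 CPM to 125 CPM in both (log2 fold change -0.75, SE 0.07, adjusted p = 1.19e-14). The E cyclins activate CDK2. CCNE1 stood at 20.6 and 22.1 CPM in wild-type against 17.6 and 15.5 CPM in the others (log2 fold change -0.37, SE 0.15, adjusted p = 0.0235). Its call was lost without wild-type replicate 2 (0.0515) and without either library labelled knockout (0.0565 and 0.279 without replicates 1 and 2), and by the DESeq2 Wald test on all 4 libraries (0.0776). CCNE2, the lowest of the 32 genes with 66 and 80 reads in wild-type against 29 and 40 in the others, had a log2 fold change of -0.91 (SE 0.29, adjusted p = 0.00429). It was no longer called without wild-type replicate 2 (0.0710) or replicate 1 labelled knockout (0.103), nor by the DESeq2 Wald test on all 4 libraries (0.0544).

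All 3 genes of new chromatin were lower. CHAF1B, the middle subunit of the histone chaperone CAF-1 (ENSG00000159259, chromosome 21, 36385378 to 36419015), went from 139 and 130 CPM to 51.6 and 56.0 CPM (2.50-fold lower, log2 fold change -1.32, SE 0.08, adjusted p = 4.68e-25). CHAF1A, the large subunit, went from 186 and 180 CPM to 108 and 101 CPM (1.76-fold lower). SLBP, which binds the stem-loop of histone transcripts and is itself made for S phase, went from 186 and 188 CPM to 99.2 and 94.8 CPM (1.93-fold lower, adjusted p = 2.09e-19).

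In absolute level, the 32 genes covered a wide range. On the per-length scale in wild-type, MCM7 (250 RPKM), PCNA (207), MCM3 (142) and TK1 (105) were the highest, and CCNE2 (1.00), POLA1 (2.70), GINS3 (7.47) and MCM10 (8.30) the lowest. Across the 32 genes Spearman's correlation with the log2 fold change was -0.04 for the wild-type CPM and -0.16 for the length of the gene model. These points share the same 4 libraries and are given as a description.

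The 32 genes lie on 19 chromosomes. To show the level of change around each gene, it was set beside the 50 tested genes nearest to it. The median log2 fold change of the neighbours ranged from -0.61 around CDT1 to 0.88 around RFC3. Of the 26 genes called lower, 18 had neighbours with a median below 0 and 8 with a median above 0. All 26 but POLE lay below their neighbours' median, and 20 lay below the lower quartile. As the 26 were picked for being lower, most were bound to lie below such medians, so these counts only describe them. Over all 32 genes, whatever their call, the median difference between a gene and its neighbours' median was -0.68. CDC45 (-0.39) matched its neighbours (-0.39), as did POLE (-0.17 against -0.19) and RFC4 (0.21 against 0.19). MCM2 fell (-0.47) where the neighbours' median was 0.45, and CDT1 rose (0.77) where it was -0.61. RFC3, on chromosome 13, was higher by less than its neighbours (0.25 against 0.88).

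**Figure D3:**
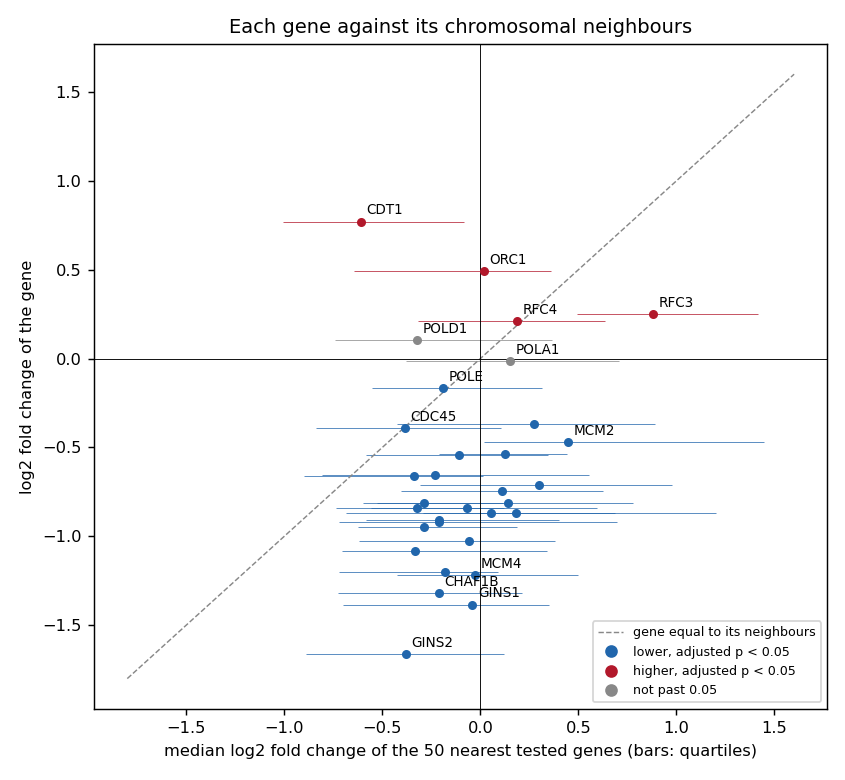
Log2 fold change of each of the 32 genes against the median log2 fold change of its 50 nearest tested genes on the same chromosome, with bars for the neighbours' quartiles and a dashed line where both are equal. Most genes called lower lie under the line, while CDT1 lies 1.38 above it and RFC3 0.63 below it.

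Counts could be shared with other rows for some genes. A row of another gene overlapped 15 of the 32, on the opposite strand for 12, and the strand setting of the counting is not stated. Among these, ENOSF1 overlaps TYMS by 3255 bases on the opposite strand and had a log2 fold change of 0.34, and NDUFAF6 overlaps CCNE2 by 912 bases and had one of -0.83. MORC3 overlaps CHAF1B by 771 bases on the same strand and had a log2 fold change of 0.81. The row of the pseudogene EEF1B2P3, on the opposite strand inside POLA1, held 391 to 552 reads per library, more than POLA1 itself (236 to 297). Rows named as pseudogenes of 4 of the genes, 9 in all, held 1 read over the 4 libraries together. That count alone cannot show whether reads matching both a gene and its pseudogene were left out.

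The wider machinery moved in both directions. Of 81 other replication and G1/S genes, 45 were lower, 24 higher and 12 not called, with a median log2 fold change of -0.42. The shares were 55.6% lower and 29.6% higher, against 32.3% and 33.7% of all genes tested. Among genes averaging at least 10 CPM they were 40.3% and 34.8%. Subunits of complexes named here beyond the 32 genes and the largest changes were chosen with their values in view. So were CCND2, CCND3, CDK4, CDK6, CDKN1B, CDKN2C, CDKN2D, RB1, RBL1 and RBL2. All 3 subunits of RPA, the single-strand binding protein, were lower, with log2 fold changes from -1.11 for RPA1 to -0.75 for RPA2. FEN1, the flap nuclease of lagging strand synthesis, fell 2.22-fold (adjusted p = 4.69e-23). UHRF1, which guides maintenance DNA methylation, fell 2.57-fold, ASF1B, a histone chaperone, 1.78-fold, and RBBP4, the small subunit of CAF-1, 1.58-fold.

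Other parts of the machinery were higher or mixed. Of the 6 ORC subunits 4 were higher, ORC1, ORC2, ORC3 and ORC4, with log2 fold changes of 0.36 for ORC2 to 0.72 for ORC3, while ORC6 was at -0.53 and ORC5 (0.24) did not pass. The call of ORC2 was lost without either library labelled knockout (adjusted p = 0.0863 and 0.126 without replicates 1 and 2). PRIM1, the catalytic primase subunit, rose 1.83-fold (adjusted p = 5.71e-08), while POLA2 of the same polymerase alpha complex was at -0.64 and PRIM2 (-0.22) did not pass. Of the 4 genes of polymerase delta, POLD2 alone was called (log2 fold change -0.44), and of the 4 of polymerase epsilon, POLE, POLE2 (-0.46) and POLE3 (-0.67) were lower. TOPBP1, a scaffold of origin firing, rose with a log2 fold change of 0.70, whereas the helicase gene RECQL4 (-0.80) and the fork protection gene TIPIN (-0.75) fell. MTBP and WDHD1 were higher (0.71 and 0.62), but without replicate 1 labelled knockout neither passed (adjusted p = 0.106 and 0.0691), and MTBP did not pass without wild-type replicate 1 either (0.0783). NPAT, a coactivator of histone genes, and HAT1, a histone acetyltransferase, rose with log2 fold changes of 0.92 and 0.57.

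**Figure D4:**
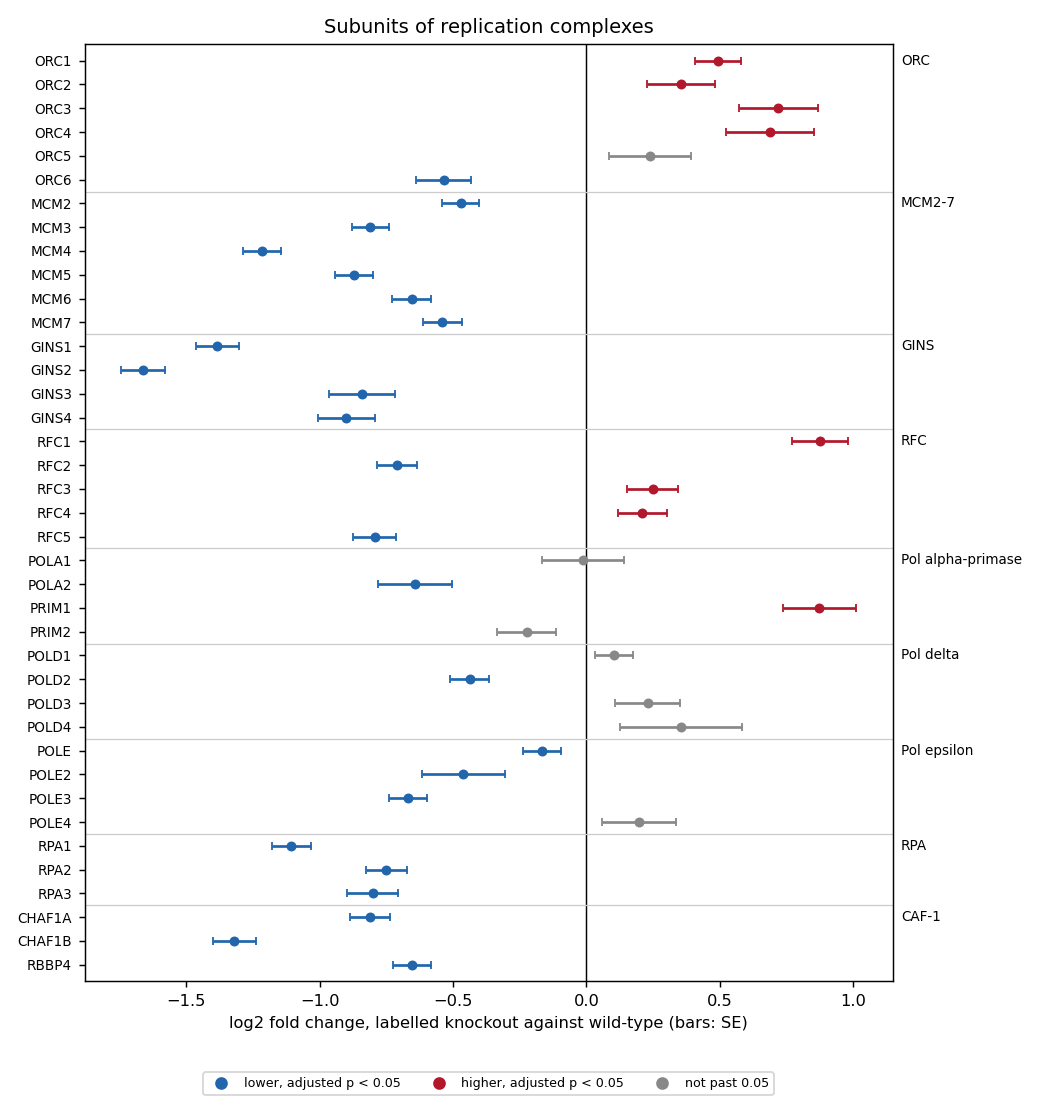
Log2 fold change of every subunit gene of 9 replication complexes, labelled knockout compared with wild-type, with bars for the standard error. All subunits of the MCM ring, GINS, RPA and CAF-1 are called lower, whereas ORC, RFC and the polymerase alpha complex hold subunits called in both directions.

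Regulators that act before the G1/S step held the 3 largest rises of the 81 genes, those of CDKN2A, CDKN2B and CCND1. CCND3 was the most abundant D cyclin, the partners of CDK4 and CDK6 in G1, and fell from 540 and 513 CPM to 318 and 315 CPM (log2 fold change -0.73). CCND1 rose from 3.67 and 4.08 CPM to 21.6 and 27.0 CPM, and CCND2 from 8.44 and 9.30 CPM to 44.5 and 43.2 CPM. Per length, CCND3 stood at 78.9 and 68.1 times CCND2 in wild-type against 8.82 and 8.997 times in the others. CDKN2A, known to be deleted in Jurkat cells, stood at 0.459 and 0.0628 CPM in wild-type against 45.6 and 54.7 CPM in the others. Its neighbour CDKN2B, the p15 gene, had 2 and 0 reads against 23 and 37. Whether these differences reflect regulation or the presence of the locus was not tested. The inhibitor genes CDKN1A (log2 fold change -0.75) and CDKN1C (-1.11) fell, as did CDC25A, the phosphatase that activates CDK2 (-0.83). CDKN1B, the p27 gene of the same inhibitor family as CDKN1A and CDKN1C, rose (0.43, adjusted p = 8.69e-05). The inhibitor genes CDKN2C and CDKN2D fell too (-0.62 and -0.67), CDKN2C from 163 and 143 CPM to 102 and 97.2 CPM. CDK4 (-0.42) and CDK6 (-0.66) were also lower. Of the pocket protein genes, which restrain E2F factors, RB1 (0.40), RBL1 (0.80) and RBL2 (0.50) were all higher.

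A list of 33 genes of G2/M and mitosis was counted beside them. Of these, 13 were lower, 12 higher and 8 not called, with a median log2 fold change of -0.05, near that of all genes tested. The shares, 39.4% lower and 36.4% higher, were near the 40.3% and 34.8% of genes averaging at least 10 CPM. Over all genes tested they were 32.3% and 33.7%. BIRC5, the survivin gene, and MYBL2, a transcription factor of late cell cycle genes, had the largest falls (-0.81 and -0.62), and the motor gene CENPE and the spindle gene HMMR the largest rises (1.23 and 1.18). No test of the difference between the lists was made, since the lists were chosen with results of these libraries known.

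**Figure D5:**
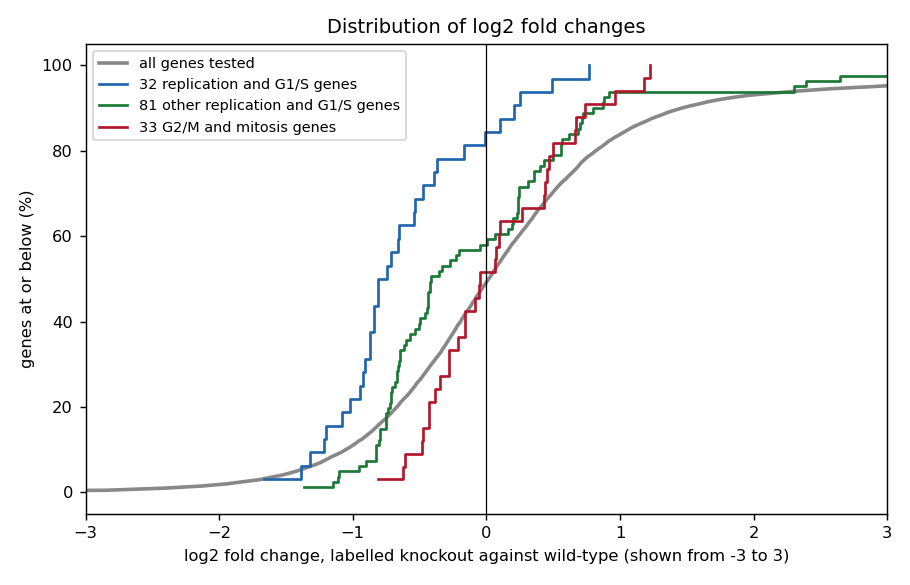
Cumulative share of genes at or below each log2 fold change, labelled knockout compared with wild-type, for the 32 genes, the 81 other replication and G1/S genes, the 33 G2/M genes and all genes tested, shown from -3 to 3. The curve of the 32 genes lies furthest left, with its median at -0.78, that of the 81 has its median at -0.42, and that of the G2/M genes crosses the curve of all genes near 0.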

How the data were processed

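Read counts per gene were analysed for 4 RNA libraries, 2 per group, assigned by the genotype label. The authors deposited raw counts without normalization in 1 table, per the file headers, which also gives symbols, coordinates and gene model lengths. Per the submitters' processing notes, the tools were featureCounts 1.5.0-p3, HISAT2 2.0.5 and CASAVA 1.8, with no roles given. The organism label says mouse, but the rows are human and were treated so. The reference at hand was mouse, so no sequence is shown.

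The whole table was fitted with edgeR 4.0.16 (R 4.3.3): default expression filter (10 counts minimum, 15 in total), TMM scaling (factors 0.978 to 1.04), a two-sided quasi-likelihood test and Benjamini-Hochberg adjustment over 15294 genes. CPM and RPKM are TMM-scaled, and the standard error is the size of the log2 fold change divided by the root of its F statistic. Library totals of 15008554 to 17477643 leave genes with few reads, such as CCNE2, imprecise. On counts simulated at these depths, with 200 changed genes of 15294, 14200 genes passed the filter. The test recovered 67% of 2-fold and 90% of 4-fold changes, and 4 of 161 calls were false. In the data themselves 66.0% of genes tested were called, a far larger share than was simulated, so these rates need not hold for them.

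The members and lists were chosen with earlier results of these data known. The naming rule took all 32 members, up to 3 genes per role and direction of the other 81, and 2 per direction of G2/M; the report says which genes beyond it were chosen after their values were seen. Alternatives were 4 other scalings, the DESeq2 1.42.0 Wald test, voom in limma 3.58.1, 2 other filters, a replicate block, 2 stricter thresholds, a restriction to protein-coding rows and leaving out each library.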

Additional observations from a re-analysis of the deposited data

How the results depend on the processing

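Over 16 alternatives, 31 of the 32 genes kept their direction and 20 kept both direction and call. Of these alternatives, 2 were stricter thresholds on the main fit, under which no direction could change. CDC45, E2F1, MCM2, MCM7 and ORC1 lost their call only where 1.5-fold was required. The number called lower ranged from 20 (with at least 1.5-fold required) to 26. The number called higher was 4, but 2 by the DESeq2 Wald test, at an adjusted p of 0.01, with library totals only and with no filter, and 1 with 1.5-fold required; it ranged from 2 to 4 when a library was left out, being 2 without either library labelled knockout. CDT1 was the 1 called with 1.5-fold required. The median log2 fold change was -0.83 with library totals only, and from -0.78 to -0.73 with a library left out. Requiring 1.5-fold gave 29 lower and 14 higher of the 81 other genes, and 3 lower and 6 higher of the 33 G2/M genes. Of all genes tested, 20.8% were lower and 24.5% higher at that threshold. Of the 32, only POLA1 changed sign, to 0.00048 without mitochondrial rows in the scaling, 0.023 with upper-quartile scaling, and it ranged from -0.12 to 0.11 with a library left out. The replicate numbers were shared between groups, but the deviations of same-numbered libraries correlated at 0.03, so they were not taken as pairs. The replicate block gave 26 lower and 4 higher of the 32, a median of -0.78, 45 lower and 24 higher of the 81, and 14 lower and 12 higher G2/M genes. The cause of these shifts was not tested. With 2 libraries per group, genes of low count such as CCNE2, CCNE1 and POLA1 have wide errors.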
